A study of Mus musculus with 25 samples.

Results

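The genes described here encode the content of the cytotoxic granule and the ligands that kill target cells from the cell surface: the granzymes Gzma, Gzmb, Gzmc, Gzmk and Gzmm, perforin (Prf1), the granzyme B inhibitor Serpinb9, the granule proteoglycan serglycin (Srgn), Fas ligand (Fasl) and TRAIL (Tnfsf10). They were chosen by gene symbol. Each of the 10 symbols had 1 cluster of probes on the array, so 10 of 22206 gene clusters are described. The data are expression arrays (Clariom S) of invariant natural killer T (iNKT) cells, a T cell lineage that recognises glycolipids on CD1d, sorted from the thymus of C57BL/6 mice. The study compared 3 genotypes, labelled WT, Mst1KO and dKOMst, at 2 steps of maturation. Mst1 is the protein of Stk4, a kinase of the Hippo pathway, and dKOMst is used here as the label spells it. S1_S2 cells lacked surface NK1.1 and were taken without regard to CD44 (stages S1 and S2 together), whereas S3 cells carried both CD44 and NK1.1. All sorted cells were TCRb positive, bound the CD1d tetramer and were negative for CD24.

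Of 25 arrays, 12 were of S1_S2 cells (6 WT, 4 Mst1KO, 2 dKOMst) and 13 of S3 cells (7 WT, 5 Mst1KO, 1 dKOMst). The labels do not say how the alleles were made, whether the deletion was restricted to a cell type, how old the mice were, or whether each array came from a separate mouse, so p-values measure the spread between arrays, which may be technical. Values are log2 intensities, and a difference of 1 is a doubling on the scale of the array. The title numbers of the samples fall into 2 runs with a gap between them, of 16 and 9 arrays. All Mst1KO arrays lie in the first run and all dKOMst arrays in the second, with WT arrays in both, so a term for the run was part of the model and values within 1 run are given beside the results. The 10 genes differed between the runs by -0.20 to 0.23, none with an adjusted p under 0.05 in limma. Over the whole array 1362 of 22206 clusters had an adjusted p under 0.05 for the run, so the runs did differ. The median of the negative control probes was between 6.19 and 6.59 on each array, and a value at or below its own array's median is called not above background. Stk4 itself was 9.22 to 9.40 on Mst1KO S1_S2 arrays against 10.18 to 10.74 on WT arrays, but at S3 the ranges overlapped, 9.43 to 10.13 against 9.69 to 10.73, and the dKOMst arrays read 10.27, 9.63 and 10.08. Whether the Stk4 probes lie in the deleted part is not given, so they check the labels at S1_S2 of Mst1KO alone. The mean of Y-linked genes was not above background on 2 of 4 Mst1KO S1_S2 and 2 of 5 Mst1KO S3 arrays. On all WT and dKOMst arrays it was above background, so apparent sex is not balanced between Mst1KO and WT. Of 5 iNKT and T cell genes (Cd3e, Cd3d, Cd3g, Zbtb16 and Cd5), 5 were above background on every array. Of 7 mast cell and basophil genes, 1 to 3 were above background on each array, and Mcpt4, Fcer1a and Ms4a2 were on none.

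Killer lymphocytes store granzymes, which are serine proteases, together with perforin on a scaffold of serglycin, and release them toward a target cell. Perforin opens the target's membrane and the granzymes that enter cleave its proteins, while Serpinb9 blocks granzyme B that leaks into the killer's own cytosol. Fas ligand and TRAIL act at the surface through death receptors of the TNF receptor family. In the thymus, iNKT cells that reach stage 3 take on receptors and effector genes shared with natural killer cells.

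The stretches before the start sites of Gzma, Gzmb, Gzmc and Prf1 are shown because these 4 genes gave large stage differences or the opposite genotype differences among the granzymes. Each is the 250 bases upstream of a RefSeq start on build GRCm38.p6, 5′ to 3′ on the gene's strand, and capitals mark the motif matches counted below. For Gzmc and Prf1 the listed start lies inside the gene's annotated span, so a more distal start exists in the same assembly.
Gzma, chr13:113100982-113101231, minus strand: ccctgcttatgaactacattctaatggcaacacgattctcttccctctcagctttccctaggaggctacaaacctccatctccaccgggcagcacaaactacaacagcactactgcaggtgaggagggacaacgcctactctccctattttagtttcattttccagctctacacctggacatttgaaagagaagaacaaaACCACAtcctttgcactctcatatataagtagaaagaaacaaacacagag
Gzmb, chr14:56262335-56262584, minus strand: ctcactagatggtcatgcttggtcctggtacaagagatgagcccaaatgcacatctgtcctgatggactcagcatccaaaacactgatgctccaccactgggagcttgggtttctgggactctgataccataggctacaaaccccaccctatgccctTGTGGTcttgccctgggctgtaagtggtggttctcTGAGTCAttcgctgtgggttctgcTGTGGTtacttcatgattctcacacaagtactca
Gzmc, chr14:56234658-56234907, minus strand: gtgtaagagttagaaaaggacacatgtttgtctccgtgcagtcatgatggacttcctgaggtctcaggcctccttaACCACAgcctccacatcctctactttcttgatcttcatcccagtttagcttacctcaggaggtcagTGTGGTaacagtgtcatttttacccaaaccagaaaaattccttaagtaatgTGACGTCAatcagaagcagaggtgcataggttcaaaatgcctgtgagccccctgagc
Prf1, chr10:61297586-61297835, plus strand: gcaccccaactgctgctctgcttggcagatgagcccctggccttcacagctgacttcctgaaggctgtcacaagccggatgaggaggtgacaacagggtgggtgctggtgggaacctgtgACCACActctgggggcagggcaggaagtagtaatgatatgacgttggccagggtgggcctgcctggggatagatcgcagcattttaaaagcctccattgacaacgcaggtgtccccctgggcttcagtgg

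All 10 genes matched the RefSeq table, with 12 upstream windows, and 5 motifs were searched on both strands. The RUNX letters TGTGGT lay in the windows of 6 genes (Gzma, Gzmb, Gzmc, Gzmm, Prf1 and Srgn), and 14% of all 32851 windows of this length held them. In Gzma the match began at -50, counted in bases from the start site, and in Prf1 at -130, while Gzmb had matches at -93 and -34 and Gzmc at -174 and -108. The AP-1 letters TGANTCA were found in the Gzmb window alone among the members, at -58 (6.7% of all windows), and the cyclic AMP response element TGACGTCA in the Gzmc window alone, at -57 (1.5% of all windows). The T-box letters TCACACC lay in the Gzmk and Gzmm windows (3.3% of all), and the STAT letters TTCNNNGAA in a Gzmm window (7.0% of all). No matched bases were shared between 2 motifs. A match is a description of letters and not of a bound site. Gzma and Gzmk are next to each other on chromosome 13 with no protein-coding gene between them, as are Gzmb and Gzmc on chromosome 14, where Gzmf is the next gene.

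The first question was how the granule genes differ between NK1.1-negative and NK1.1-positive cells of WT thymus. Most of the killing machinery was far higher at S3: 8 of the 10 genes rose and 0 fell, where 8.18% of all clusters rose and 8.75% fell (limma, adjusted p under 0.05). The median difference over the 10 genes was 2.25 and over all clusters 0.01. Granzymes A and B, perforin and Fas ligand rose by 3 or more on the log2 scale, Serpinb9, Gzmc and TRAIL by less, and Gzmm slightly, whereas Gzmk and serglycin did not pass the test. Because these are bulk samples, a larger share of cells with a transcript and more transcript per cell cannot be told apart.

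**Figure D1:**
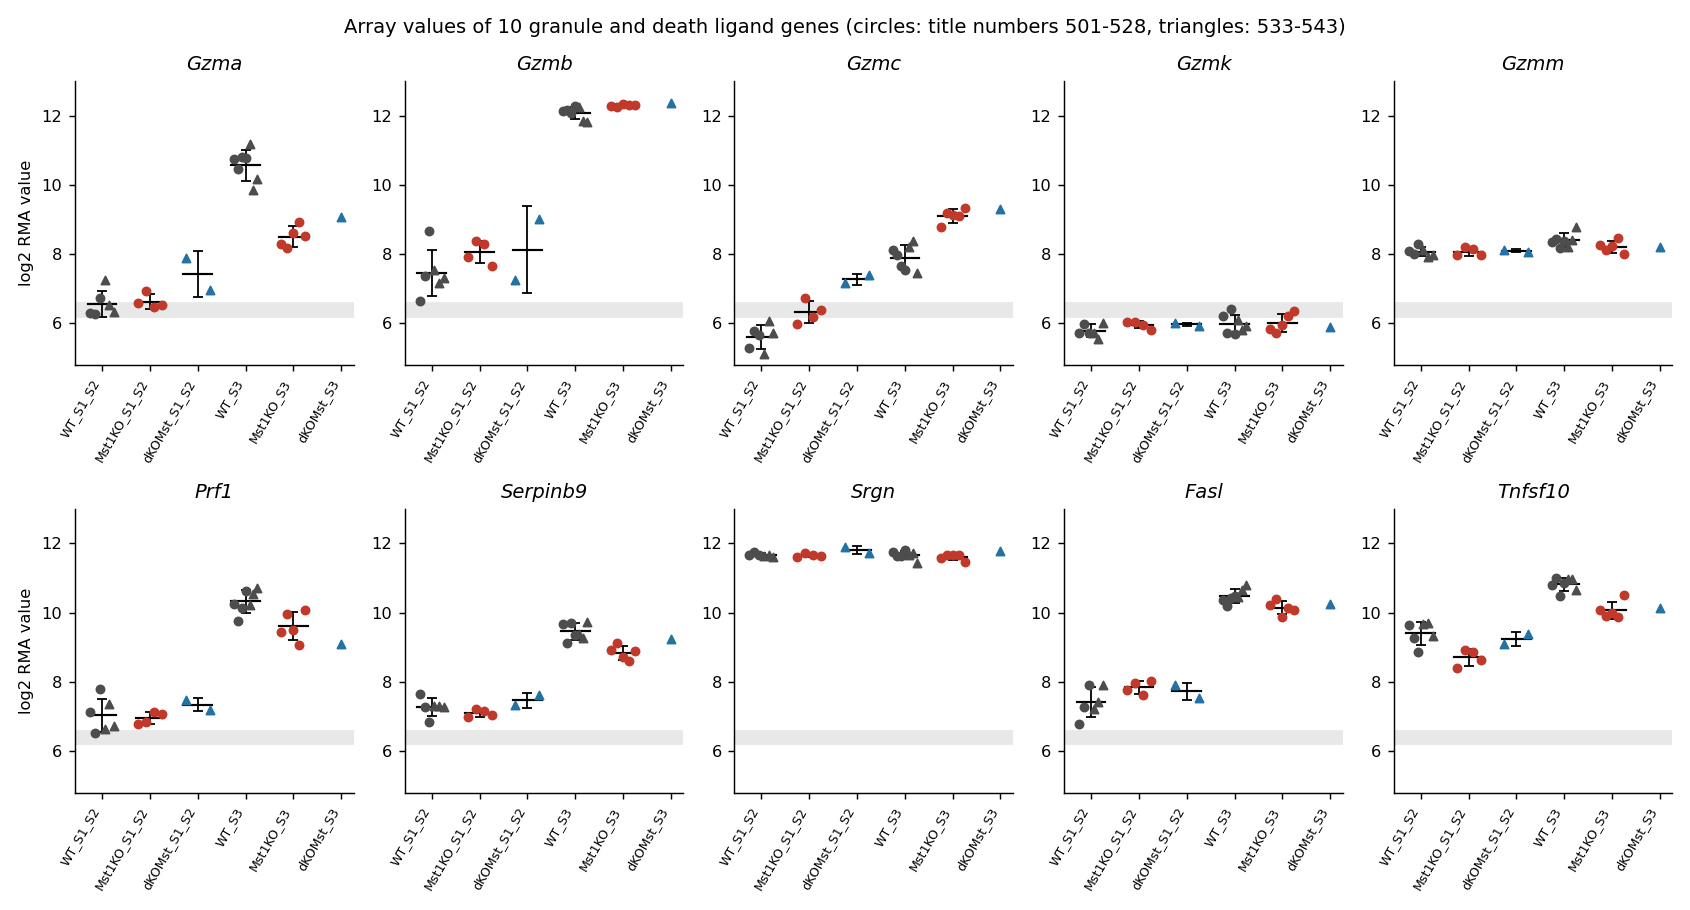
Log2 RMA value of each of the 10 genes on each array, by group, with bars for the mean ± SD where a group has more than 1 array and a grey band for the range of negative control medians (6.19 to 6.59). Gzma is 6.28 to 7.90 on S1_S2 arrays, 9.84 to 11.17 on WT S3 arrays and 8.18 to 8.93 on Mst1KO S3 arrays.

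Gzmb, the granzyme that cleaves caspases after aspartate, ranged on WT S1_S2 arrays from 6.64 through a median of 7.34 to 8.67, and on WT S3 arrays from 11.82 through 12.14 to 12.27. The ranges were far apart. The difference of 4.61 ± 0.24 (SE, 24.4-fold, limma adjusted p = 1.5e-12) ranked 3rd in size among all clusters. WT S1_S2 values were the most scattered of the replicated WT and Mst1KO groups for this gene, with an SD of 0.67 against 0.18 at S3. The highest value, 8.67 on replicate 3, came from the array on which the natural killer receptor gene Klrc1 also read 8.49. On that array Ncr1 (4.91) and Eomes (5.37) were not above background, and Klrb1c read 9.52, inside the WT S1_S2 range of 8.49 to 10.15. Even at WT S3, Ncr1 was above background on 4 of 7 arrays and Eomes on 1 of 7. Values of Klri2, Fcer1g and Tyrobp on replicate 3 are not given here. The part of other cells in the Gzmb value was not tested.

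Gzma, a tryptase of the granule, ran from 6.28 through a median of 6.43 to 7.25 on WT S1_S2 arrays, close to the negative controls and above background on 4 of 6. On WT S3 arrays it ran from 9.84 through 10.74 to 11.17, well separated from S1_S2. It rose by 4.00 ± 0.20 (15.9-fold, limma adjusted p = 7.1e-13), the 10th largest difference of all clusters. Within the first run of title numbers the difference was 4.26 and within the second 3.69.

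Gzmc belongs to the granzyme genes beside Gzmb that in mouse are found in activated killer cells. It was 5.11 to 6.08 (median 5.68) on WT S1_S2 arrays, not above background on any of them, and 7.44 to 8.38 (median 7.98) on WT S3 arrays. The fitted difference was 2.31 ± 0.16 (limma adjusted p = 2.4e-10). Since the lower group gives a bound, the level at S3 was at least 2.85-fold higher. The bound is the mean of the brighter group minus, for each dimmer array, the higher of the gene's own value and the control median.

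The remaining granzymes moved little. Gzmk, a tryptase like granzyme A, stayed between 5.54 and 6.41 on all WT arrays and was above background on 1 of 7 WT S3 arrays. Its difference of 0.19 ± 0.12 did not pass the test (limma adjusted p = 0.34). Gzmm, which prefers to cut after methionine, was already 7.93 to 8.30 at S1_S2 and 8.16 to 8.79 at S3, so the stages overlapped. It rose by 0.32 ± 0.09 (limma adjusted p = 0.02), a call that was lost within each run of title numbers (0.21, adjusted p = 0.37, and 0.46, adjusted p = 0.09). Other granzyme genes of the chromosome 14 group that the array names, Gzmf, Gzmg and Gzmn, gave 0 of 3 called in each of the 7 fitted comparisons in limma, with 1 unadjusted p under 0.05 (Gzmf in dKOMst against Mst1KO at S1_S2, near background in both). Gzmg was not above background on any array of the groups compared. Gzmf was above it on 2 of 6 WT S1_S2, 4 of 7 WT S3, 0 of 4 Mst1KO S1_S2 and 1 of 5 Mst1KO S3 arrays. A change in either gene could therefore be missed. Gzmb, Gzmc and these genes are similar in sequence, and the labels do not say how far their probes tell them apart.

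Perforin (Prf1) was 6.53 to 7.78 (median 6.94) on WT S1_S2 arrays and 9.74 to 10.72 (median 10.26) on WT S3 arrays. The groups did not overlap, and the difference was 3.30 ± 0.19 (9.84-fold, limma adjusted p = 9.8e-12). Its highest S1_S2 value was again on replicate 3. Serpinb9, the inhibitor of granzyme B, was 6.82 to 7.63 (median 7.29) and 9.13 to 9.73 (median 9.37) at the 2 stages, a rise of 2.19 ± 0.12 (4.57-fold, limma adjusted p = 2.4e-12). Serglycin (Srgn), the scaffold of the granule, was bright in both, 11.60 to 11.75 at S1_S2 and 11.43 to 11.81 at S3. Its difference of -0.0047 ± 0.06 had a limma adjusted p of 0.97.

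Both death ligands rose. Fasl was 6.79 to 7.90 (median 7.34) at S1_S2 and 10.20 to 10.80 (median 10.46) at S3, with no overlap and a difference of 3.08 ± 0.14 (8.46-fold, limma adjusted p = 1.5e-13). Tnfsf10, by contrast, was already 8.85 to 9.69 (median 9.47) at S1_S2. It reached 10.48 to 10.99 (median 10.84) at S3, a difference of 1.42 ± 0.13 (2.68-fold, limma adjusted p = 1.6e-08).

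Genes that process, carry or answer to these proteins were counted from 5 further lists, against the 8.18% of all clusters that rose and 8.75% that fell. Of 12 measured granule proteins and processing enzymes, 3 rose and 2 fell: Nkg7, a granule membrane protein needed for degranulation, by 2.33 and the cathepsin Ctsw by 0.84, while Igf2r, a receptor for mannose 6-phosphate, fell by 1.03. Of 18 measured genes for granule transport and release, 6 rose and 0 fell, led by Lyst (1.28), whose loss causes giant granules, and the synaptotagmin-like Sytl2 (1.18) and Sytl3 (1.02). Of 9 serpin and cystatin inhibitors 3 rose (Serpinb6b by 1.76, Serpina3f by 1.36 and Cst3 by 0.23). Of 13 genes for TNF-family ligands, death receptors and their signalling, 6 rose and 1 fell, with Tnfrsf1a (0.87), Ltb (0.75) and Tnfsf14 (0.67) the largest. Of 17 transcription factors with a known part in granzyme or perforin expression, 6 rose and 5 fell, among them Stat4 (3.33), Id3 (-1.99) and Irf4 (-1.95). Stat4 was above background on 1 of 6 WT S1_S2 arrays and on 7 of 7 at S3, and Serpina3f on 4 of 6 and 7 of 7, so the size of either difference is uncertain. Each named difference passed the test in limma.

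Genes of natural killer and myeloid cells moved with this step. The summed level of 6 such genes (Ncr1, Eomes, Klrb1c, Klri2, Fcer1g and Tyrobp) was 36.70 to 40.94 on WT S1_S2 arrays and 52.07 to 54.41 on WT S3 arrays, and 5 of the 6 rose. Klrb1c, which encodes NK1.1 and was sorted on, was 8.49 to 10.15 at S1_S2 and 12.41 to 12.69 at S3. Ncr1, a receptor gene of natural killer cells, was not above background on any S1_S2 array. Of 7 myeloid genes 2 rose, C1qa by 1.48 and Lyz2 by 1.00 (limma adjusted p = 1.2e-06 and 1.6e-07), from S1_S2 levels above background on 1 and 2 of 6 arrays, and the summed level of the 7 was 44.14 to 46.56 at S1_S2 and 47.55 to 49.24 at S3. The part of other cells in the stage difference was not tested.

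The same step was then compared within Mst1KO cells. There 7 of 10 genes rose and 0 fell, where 5.58% of all clusters rose and 4.62% fell, with a median of 1.82 over the 10 genes and -0.04 over all clusters. Gzmb rose by 4.24 ± 0.29, Gzmc by 2.78 ± 0.20, Prf1 by 2.65 ± 0.23, Fasl by 2.29 ± 0.17, Gzma by 1.88 ± 0.24, Serpinb9 by 1.75 ± 0.14 and Tnfsf10 by 1.36 ± 0.16 (limma adjusted p from 4.4e-10 to 7.4e-06). Gzmm differed by 0.14 ± 0.11 (limma adjusted p = 0.50), and Gzmk and Srgn by 0.05 and -0.05. Of the 12 granule proteins in these cells 3 rose, with Nkg7 at 2.24, and 2 fell, with Igf2r at -1.24. Of the 18 transport genes 3 rose (Sytl2 by 1.60, Lyst by 0.98 and Sytl3 by 0.43) and 1 fell. Of the 9 inhibitors 2 rose (Serpinb6b by 1.51 and Cst7 by 0.62) and 0 fell, and of the 13 TNF-family and death receptor genes 5 rose and 0 fell. Of the 17 transcription factors 5 rose and 6 fell, among them Stat4 at 2.82 (above background on 1 of 4 S1_S2 arrays), the T-box factor Tbx21 at 1.95 and Id3 at -1.56. Genes of other cell types moved with this step too. The natural killer sum was 38.53 to 39.80 at S1_S2 and 52.64 to 54.20 at S3, and 4 of the 6 genes rose. Of 7 myeloid genes 2 rose, C1qa by 1.14 and Lyz2 by 1.02, each above background on 1 of 4 S1_S2 arrays. Of 6 double-positive thymocyte genes 2 rose (Cd8a by 0.67 and Dntt by 1.06) and 1 fell. The part of other cells in this step was not tested.

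The size of the step differed between the genotypes for 1 of the 10 genes. The difference of the differences, tested as an interaction, was -2.11 ± 0.31 for Gzma (limma adjusted p = 0.0058), the 2nd largest in size of all clusters, where 0.0901% of clusters were higher and 0.0675% lower. Over the 10 genes its median was -0.28 and over all clusters -0.03. Fasl followed at -0.79 ± 0.22 (adjusted p = 0.20), Prf1 at -0.65 ± 0.30 (0.51), Gzmc at 0.47 ± 0.26 (0.59), Serpinb9 at -0.44 ± 0.19 (0.46) and Gzmb at -0.37 ± 0.38 (0.80), none of which passed. Leaving out WT S1_S2 replicate 3 moved Fasl to -0.93 with an adjusted p of 0.03. The protease inhibitor Cst7 (cystatin F), which controls cathepsins that process granzymes, had an interaction of 0.62 in the other direction (adjusted p = 0.02). Without the 4 Mst1KO arrays that had no signal from Y-linked genes, Gzma kept a value of -2.42, with an adjusted p of 0.06. Gzma at S1_S2 was above background on only 4 of 6 WT and 2 of 4 Mst1KO arrays. A lower Mst1KO level could be missed there, and the interaction of Gzma lies close to its S3 difference of -2.08 alone.

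**Figure D2:**
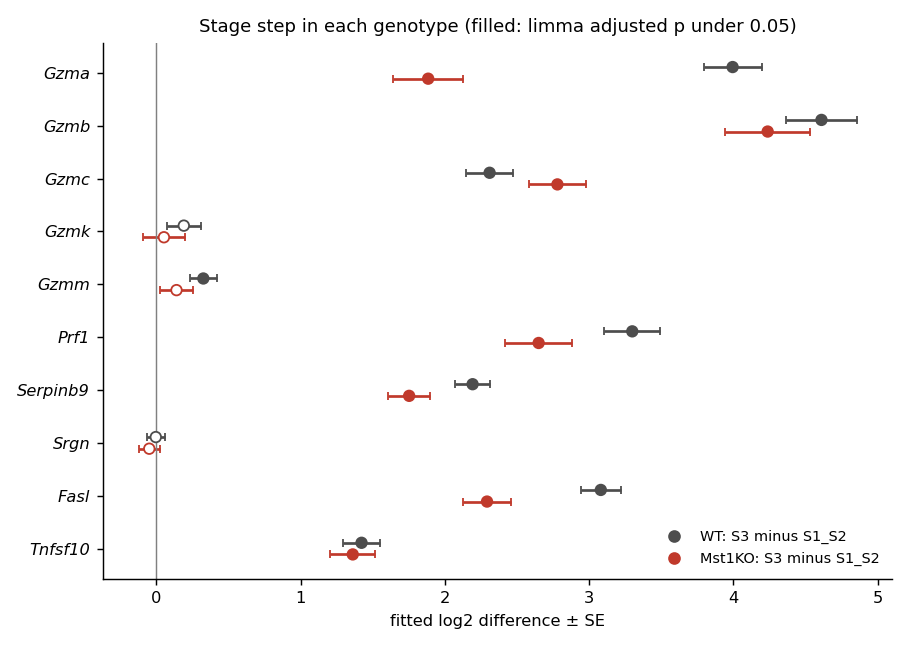
Fitted log2 difference between S3 and S1_S2 for each gene, in WT (grey) and in Mst1KO (red), with bars for the SE and filled points where the limma adjusted p is under 0.05. The Gzma step is 4.00 in WT and 1.88 in Mst1KO, whereas the Gzmb steps are 4.61 and 4.24.

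The second question was what loss of Mst1 does within each stage. Before NK1.1 appears, 0 of the 10 genes passed the limma test, 3 had an unadjusted p under 0.05, and 0.329% of all clusters were higher and 0.194% lower in Mst1KO. The medians were 0.02 over the 10 genes and -0.01 over all clusters. Gzma read 6.57, 6.93, 6.46 and 6.53 on the Mst1KO arrays, within the WT range, with a difference of 0.04 ± 0.25 (limma adjusted p = 0.99). It was above background on 2 of 4 Mst1KO and 4 of 6 WT arrays, so a lower level could be missed. Prf1 read 6.78, 6.84, 7.13 and 7.07, also within the WT range, with a difference of -0.05 ± 0.25 (adjusted p = 0.98). Gzmb read 7.92, 8.36, 8.29 and 7.67, above 5 of the 6 WT arrays and below replicate 3, and its difference of 0.51 ± 0.31 did not pass (adjusted p = 0.72).

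The 3 genes with a small unadjusted p at S1_S2 were Gzmc and both death ligands. Gzmc read 5.97, 6.72, 6.19 and 6.37 in Mst1KO, above background on 1 of 4 arrays and on 0 of 6 WT arrays. Its fitted difference was 0.78 ± 0.21 (limma adjusted p = 0.12), and at these levels no fold is given. Fasl read 7.76, 7.97, 7.62 and 8.02 in Mst1KO against a WT median of 7.34, with overlap, a difference of 0.54 ± 0.18 (adjusted p = 0.25). Tnfsf10 read 8.40, 8.93, 8.85 and 8.64 against a WT median of 9.47, overlapping at the lower edge, a difference of -0.60 ± 0.16 (adjusted p = 0.13). Without WT replicate 3, whose Fasl was among the highest and whose Tnfsf10 was the lowest of WT, both passed, at 0.74 (adjusted p = 0.022) and -0.75 (adjusted p = 0.021). Among the supporting genes, 1 of 9 inhibitors was lower (Cst7 by -0.56, adjusted p = 0.0031). Of 17 transcription factors 1 was higher (Nfil3 by 0.94, adjusted p = 0.0076). The calls among 12 granule proteins, 18 transport genes and 13 TNF-family and death receptor genes were 0.

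At S3 the granzymes went in opposite directions in Mst1KO cells. Gzma, Serpinb9 and Tnfsf10 were lower and Gzmc higher, and Gzmb did not pass the test. That is 1 of 10 genes higher and 3 lower, where 3.73% of all clusters were higher and 2.64% lower. The medians were -0.21 over the 10 genes and -0.05 over all clusters.

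Gzma read 8.30, 8.18, 8.62, 8.93 and 8.51 on the Mst1KO S3 arrays. All 5 lay below the lowest of 7 WT S3 arrays (9.84) and above the highest S1_S2 array of either genotype (7.25). The difference was -2.08 ± 0.23, a 4.22-fold lower level (limma adjusted p = 9.2e-06), and ranked 3rd in size among all clusters. Within the first run of title numbers, which holds all Mst1KO arrays and 4 WT S3 arrays, it was -2.19 (adjusted p = 3.9e-07).

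Gzmc read 8.77, 9.18, 9.12, 9.09 and 9.32 on these arrays. All 5 were above the highest WT S3 array (8.38). The difference was 1.25 ± 0.19, a 2.38-fold higher level (limma adjusted p = 0.00034), and within the first run 1.28 (adjusted p = 0.00047). Cross-reaction of its probes with other granzyme transcripts was not tested.

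**Figure D3:**
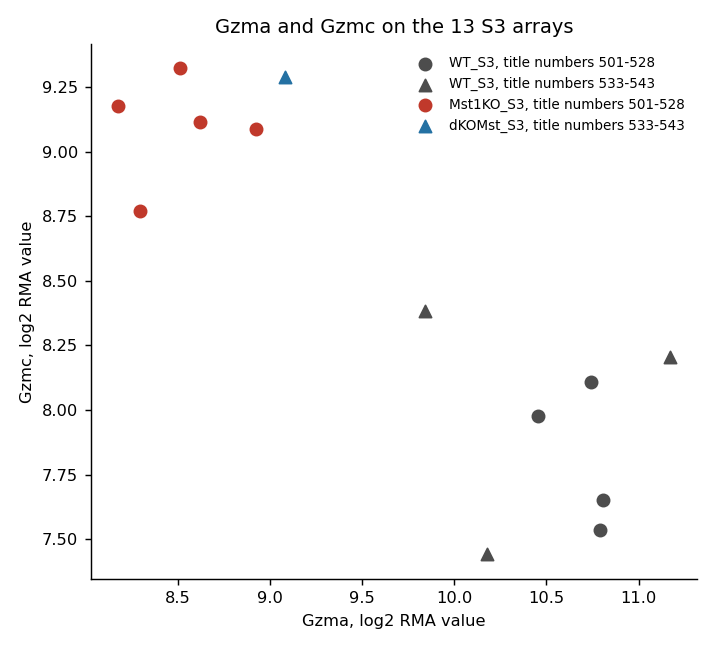
Log2 RMA value of Gzma (horizontal) against Gzmc (vertical) on the 13 S3 arrays, by genotype and run of title numbers. The 5 Mst1KO arrays (Gzma 8.18 to 8.93, Gzmc 8.77 to 9.32) lie apart from the 7 WT arrays (Gzma 9.84 to 11.17, Gzmc 7.44 to 8.38), and the dKOMst array (9.08 and 9.29) is on the Mst1KO side.

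Gzmb was nearly the same on all Mst1KO S3 arrays, 12.28, 12.26, 12.33, 12.30 and 12.32, with 4 of them above the WT range of 11.82 to 12.27 and the other inside it. Its difference of 0.13 ± 0.28 did not pass (limma adjusted p = 0.80). Gzmm differed by -0.18 ± 0.11 (adjusted p = 0.32) and Gzmk by 0.01 ± 0.14 (adjusted p = 0.98).

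Prf1 read 9.44, 9.96, 9.49, 9.07 and 10.06 on the Mst1KO S3 arrays. Of these, 3 were below the lowest WT array (9.74) and the other two within the WT range. The difference of -0.70 ± 0.22 had a limma adjusted p of 0.06 and is not called. The adjusted p was under the threshold with 5 of the alternative settings, for example 0.03 without WT S3 replicate 2, the lowest of WT.

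Serpinb9 read 8.92, 9.11, 8.71, 8.59 and 8.89 in Mst1KO S3 cells, all below the WT minimum of 9.13, though the nearest of them by very little. It was lower by -0.61 ± 0.14 (limma adjusted p = 0.01), and by -0.62 within the first run (adjusted p = 0.04). Serglycin differed by -0.09 ± 0.07 (adjusted p = 0.47).

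Tnfsf10 read 10.09, 9.91, 9.98, 9.86 and 10.49 in Mst1KO S3 cells, with the last array inside the WT range and the other 4 below it. It was lower by -0.66 ± 0.15 (limma adjusted p = 0.01), and by -0.71 within the first run (adjusted p = 0.03). Fasl read 10.22, 10.38, 9.87, 10.12 and 10.08, overlapping with WT, and its difference of -0.25 ± 0.16 did not pass (adjusted p = 0.35). Leaving out the Mst1KO arrays with no Y-linked signal (replicates 3 and 4 of each stage) moved the adjusted p of Serpinb9 to 0.12 and that of Tnfsf10 to 0.10, with differences of -0.48 and -0.57, while Gzma and Gzmc stayed called.

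**Figure D4:**
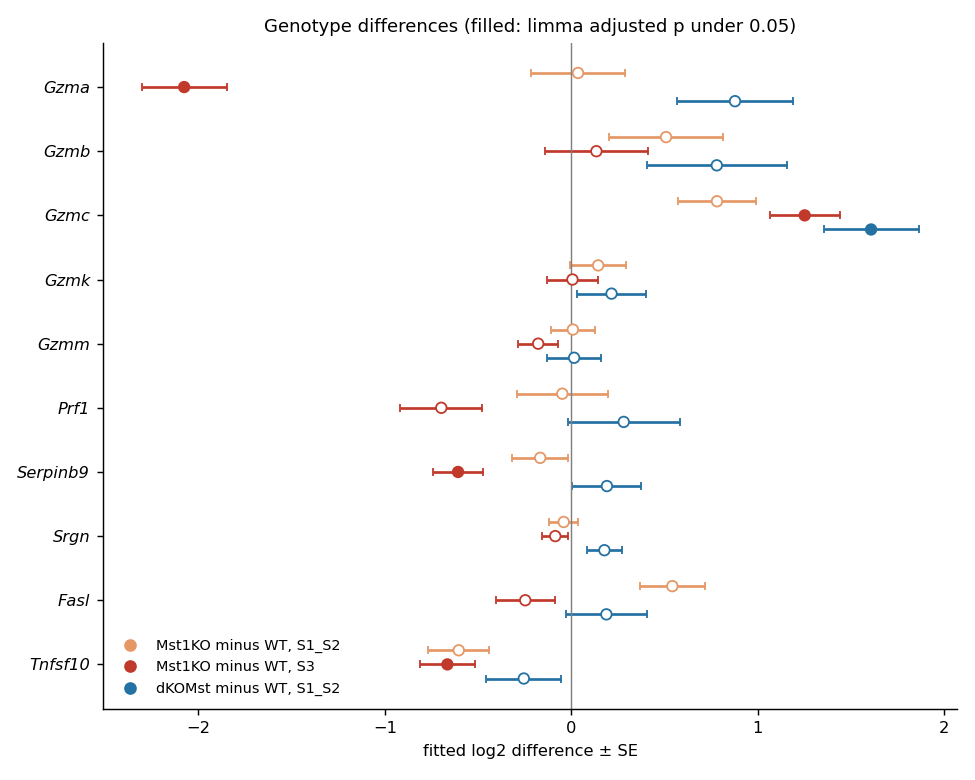
Fitted log2 difference from WT for each gene, for Mst1KO at S1_S2 (orange), Mst1KO at S3 (red) and dKOMst at S1_S2 (blue), with bars for the SE and filled points where the limma adjusted p is under 0.05. Filled points are Gzma (-2.08), Gzmc (1.25), Serpinb9 (-0.61) and Tnfsf10 (-0.66) for Mst1KO at S3 and Gzmc (1.61) for dKOMst.

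The same 5 lists were counted in Mst1KO S3 cells, against the 3.73% of all clusters that were higher and 2.64% lower. There 0 of 12 granule proteins and 0 of 18 transport genes were called in limma. At an unadjusted p under 0.05 stood 2 of the granule proteins and 5 of the transport genes, for example the chaperone gene Calr (-0.21) and the kinesin gene Kif5b (0.38). Of 9 inhibitors, 1 was higher and 1 lower: Serpinb1a was higher by 1.14 (adjusted p = 0.03) and Serpina3f was lower by -0.93 (adjusted p = 0.0034). Of 13 TNF-family and death receptor genes 2 were higher, Tnf by 0.63 (adjusted p = 0.0082) and Cflar, an inhibitor of death receptor signalling, by 0.42 (adjusted p = 0.0076). Eomes, a T-box factor of natural killer and memory CD8 T cells, was the 1 called of 17 transcription factors, at 0.67 (adjusted p = 0.0076), and was above background on 3 of 5 Mst1KO and 1 of 7 WT arrays.

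Genes of natural killer and CD8 T cells also differed at S3, and iNKT cells of stage 3 share some of the former. Of the 6 natural killer genes, 3 were higher in Mst1KO (Eomes, Klri2 by 0.94 and Tyrobp by 0.74) and Ncr1 was called lower (-0.99, limma adjusted p = 0.04). Ncr1 was above background on 4 of 7 WT and 0 of 5 Mst1KO arrays, so that its level was at least 1.01-fold lower. Their summed level was 52.64 to 54.20, within the WT range of 52.07 to 54.41. Cd8b1 was higher by 0.73 (adjusted p = 0.02), and the sum of Cd8a and Cd8b1 was 16.19 to 17.41 against 14.20 to 16.12 in WT. Other marker lists had calls too. Cd163l1, of 3 gamma-delta T cell genes, was higher by 0.82 (limma adjusted p = 0.00032). Ccr9, of 6 plasmacytoid dendritic cell genes, was higher by 0.98 (adjusted p = 0.003), and Cd4 was lower by -0.47 (adjusted p = 0.01). The mast cell and basophil, myeloid and B cell lists had no calls. The part of CD8 T cells, natural killer cells or any other cells in the granzyme differences was not tested.

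In dKOMst cells at S1_S2 1 of 10 genes was higher and 0 lower, where 0.554% of all clusters were higher and 0.369% lower. The medians were 0.20 over the 10 genes and 0.01 over all clusters. Gzmc read 7.16 and 7.39, above background on both arrays and above all 6 WT arrays. The fitted difference was 1.61 ± 0.25 (limma adjusted p = 0.0013), and since WT was not above background the level was at least 1.85-fold higher. Within the second run of title numbers the difference was 1.64 with an adjusted p of 0.07.

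Gzma read 7.90 and 6.96 on the dKOMst S1_S2 arrays, 1 of them above all WT values, with a difference of 0.88 ± 0.31 (limma adjusted p = 0.24). Gzmb read 7.25, within the WT range, and 9.01, above it, and differed by 0.78 ± 0.38 (adjusted p = 0.47). Prf1 (7.46 and 7.20), Serpinb9 (7.32 and 7.61), Fasl (7.90 and 7.54) and Tnfsf10 (9.10 and 9.39) all lay within the WT ranges. Srgn differed by 0.18 ± 0.09 (adjusted p = 0.53). Of the supporting genes, 1 of 12 granule proteins was higher (the cathepsin Ctsl by 0.73, adjusted p = 0.02). Of 13 TNF-family and death receptor genes 1 was higher (Tnf by 0.76, adjusted p = 0.048). Of 17 transcription factors 2 were higher (Eomes by 0.91, adjusted p = 0.02, and Foxo1 by 0.43, adjusted p = 0.04). No gene of these lists was lower, and the calls among 18 transport genes and 9 inhibitors were 0. Eomes was above background on both dKOMst arrays and on 0 of 6 WT arrays, a level at least 1.53-fold higher.

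Other cell type genes moved on the same 2 arrays. The Fc receptor chain gene Fcer1g was higher by 2.06 (limma adjusted p = 2.7e-05), the natural killer sum was 41.39 to 42.48 against 36.70 to 40.94 in WT, and 2 of 7 myeloid genes were higher (Itgam by 0.93 and Lyz2 by 0.70). Fcer1g was above background on 4 of 6 WT arrays, Lyz2 on 2 and Itgam on 5. The myeloid sum was 46.86 to 47.12 against 44.14 to 46.56 in WT. Klrb1c was lower by -1.18 (adjusted p = 0.02), at 8.38 and 8.27. Ncr1 was not above background on either array. The part of other cells in the Gzmc difference was not tested.

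Against Mst1KO at S1_S2, dKOMst had 0 of 10 genes called in limma and 2 with an unadjusted p under 0.05, where 0.117% of all clusters were higher and 0.054% lower. The 2 genes were Gzma, at 0.84 ± 0.37 (adjusted p = 0.53), and Gzmc, at 0.83 ± 0.30 (adjusted p = 0.39). All Mst1KO arrays lie in one run of title numbers and all dKOMst arrays in the other, so this contrast rests on the run term estimated from WT. The medians were 0.30 over the 10 genes and 0.02 over all clusters.

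The dKOMst S3 group is 1 array and allows no test, so its values are set beside the 3 WT S3 arrays of the same run. Of the 10 genes 3 were above all 3 WT arrays and 6 below, where 26.6% of all clusters were above and 26% below. Gzma read 9.08 against a WT mean of 10.39, and Prf1 9.09 against 10.49. Gzmc read 9.29 against 8.01 and Gzmb 12.36 against 11.97. Tnfsf10 read 10.13 against 10.86, Fasl 10.24 against 10.63 and Serpinb9 9.24 against 9.46. Srgn was the third gene above (0.16 higher), Gzmm was below by -0.28, and Gzmk lay within the WT values. Set against all 7 WT S3 arrays, Serpinb9, Fasl, Gzmm and Srgn also lay within the WT range. Ncr1 on the dKOMst array read 7.16, against 5.60 to 6.54 on the 3 WT arrays and up to 7.75 over all WT S3 arrays. Eomes read 7.68, against 6.08 to 6.42 on the 3 WT arrays. The natural killer sum was 56.58, against 52.07 to 54.41 on WT S3 arrays, and the myeloid sum 45.79 against 47.55 to 49.24. The part of other cells in the values of this array was not tested.

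Levels of each gene across the 6 groups can be put in order by their means. For Gzma the order was WT S3 (10.57 ± 0.45, SD, n = 7), dKOMst S3 (9.08, n = 1), Mst1KO S3 (8.51 ± 0.29, n = 5), dKOMst S1_S2 (7.43 ± 0.66, n = 2), Mst1KO S1_S2 (6.62 ± 0.21, n = 4) and WT S1_S2 (6.57 ± 0.38, n = 6). The last pair differed by less than their spread. For Gzmc the S3 groups stood with dKOMst at 9.29, Mst1KO at 9.10 ± 0.20 and WT at 7.90 ± 0.36. The S1_S2 groups followed at 7.27 ± 0.16 in dKOMst, 6.32 ± 0.32 in Mst1KO and 5.60 ± 0.35 in WT. For Gzmb the S3 groups were close to each other, at 12.36, 12.30 ± 0.03 and 12.08 ± 0.18, above S1_S2 groups of 8.13 ± 1.25 in dKOMst, 8.06 ± 0.33 in Mst1KO and 7.45 ± 0.67 in WT, whose spreads overlap.

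Likeness of pattern was measured as the root mean square difference of group means, each gene centred over the 6 groups, among 17040 named genes, and a smaller value is a closer pattern. Among the members, Prf1 and Fasl (0.34) and Serpinb9 and Tnfsf10 (0.41) were the closest pairs once the nearly flat Gzmk, Gzmm and Srgn are set aside. Prf1 was also the gene closest to Gzma (0.47), followed by Nod1 (0.54) and Entpd1 (0.58). Their Mst1KO minus WT at S3 was -0.70, -0.75 and -0.51, smaller in size than the -2.08 of Gzma. The same group means picked these genes, so their shared sign is partly fixed by the choice. The genes closest to Gzmb were the natural killer receptor genes Klrc3 (0.35), Klra5 (0.36) and Klrd1 (0.41). Those closest to Gzmc were Tsc22d3 (0.38), the signalling adaptor gene Tyrobp (0.40) and Klra7 (0.44). Their Mst1KO minus WT at S3 was 0.05, 0.74 and 0.69, against 1.25 for Gzmc. The genes closest to Prf1 were Styk1 (0.27), Nod1 (0.27) and Fasl. All of these genes were likewise picked by the same group means. Gzma and Gzmb were 1.17 apart, and Gzma and Gzmc 1.06. These values describe 6 group means, 1 of them a single array.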

How the data were processed

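Sorted thymic iNKT cells were measured on 25 Clariom S arrays. The authors deposited log2 values that the submitters' processing notes tie to RMA and Affymetrix Expression Console 1.1. RMA subtracts background, makes the distributions of the arrays alike and summarises probes, which compresses differences of dim genes. Gene names came from the platform annotation: 19572 of 22206 non-control clusters had 1 symbol and 2634 none.

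Group means and an additive term for the run of title numbers were fitted with lmFit and eBayes (limma 3.58.1, R 4.3.3; 18 residual degrees of freedom), and p-values were adjusted over all 22206 clusters by Benjamini-Hochberg. A difference was called at an adjusted p under 0.05. The number of arrays limits the precision. Members and lists were chosen with earlier results of these data known. Named were all members and, from each list, at most 3 called genes per comparison by size of difference (without any call, at most 2 by p). Genes closest in pattern were the 3 nearest for Gzma, Gzmb, Gzmc and Prf1. The model was first tested on simulated data for Mst1KO against WT at S3. Of simulated differences of 0.5, 62% were called, and of differences of 1, 98%, so a true difference near 0.5 can go uncalled. Of the unchanged clusters 10 were called. Fewer clusters were changed in the simulation than were called in the data for this contrast (829 higher and 586 lower). The adjustment depends on that number, so the simulated shares may not carry over. The other contrasts, some with fewer arrays, were not simulated. Alternatives covered the run term, normalization, dim clusters, the variance model, array weights, a 1.2-fold minimum, sex, and leaving out each array.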

Additional observations from a re-analysis of the deposited data

Results flagged for a closer look

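The Mst1KO difference in Gzma differed between the stages. Mst1KO minus WT was 0.04 at S1_S2 and -2.08 at S3, and the test of the difference gave -2.11 ± 0.31 (limma adjusted p = 0.0058, with alternatives from -2.42 to -1.98). At S1_S2 Gzma was above background on 4 of 6 WT and 2 of 4 Mst1KO arrays, which limits how far a lower level could be seen there. A single array far from the rest of its group was looked for in 40 combinations of member and group, and 0 met the criterion.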

How the results depend on the processing

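Each called difference of a member was recomputed under the alternatives that apply to it, 484 values in all, of which 475 kept the call, 9 lost it and 0 reversed. The calls lost were Gzmm between the WT stages (within each run of title numbers and with a 1.2-fold minimum), Serpinb9 and Tnfsf10 in Mst1KO at S3, Gzma in the test of the stage difference, and Gzmc in dKOMst at S1_S2. Of the 10 members, the number called in Mst1KO against WT at S1_S2 went from 0 to 1 without the run term and ranged from 0 to 2 when leaving out 1 array (2 without WT S1_S2 replicate 3). At S3 it went from 4 to 2 with the 1.2-fold minimum and to 2 without the arrays lacking Y-linked signal. The stage difference went from 1 to 0 without those arrays, and ranged from 1 to 2 when leaving out 1 array. In dKOMst against WT at S1_S2 the number went from 1 to 0 within the second run, and in dKOMst against Mst1KO from 0 to 1 with only the groups compared in the fit (Gzmc, 0.96, limma adjusted p = 0.04). Of 1079 values for members that were not called, 49 changed sign and 10 passed the threshold. The causes were not tested. The alternative with another cluster of a symbol was not run, since each symbol has 1 cluster, and fits within 1 run cover the contrasts whose groups it holds. No paired analysis was possible because the labels give no replicate numbers. Dim signal limits Gzmk, Gzmc at S1_S2 and Gzma at S1_S2, and the dKOMst groups of 2 and 1 arrays limit those comparisons.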
